A study of Mus musculus with 6 samples.

Results

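The genes described here encode the proteins that prepare, fire and carry forward a DNA replication origin. They were 50 genes in 11 functional groups: the origin recognition complex, the licensing factors, the helicase activation factors, DNA polymerases alpha-primase, delta and epsilon, the sliding clamp and its loader, replication protein A (RPA), the Okazaki fragment enzymes, the fork protection proteins and the chromatin assembly factor. A gene was followed if a probe for it was detected on every array (a detection p under 0.05 against the negative controls), and the brightest such probe stood for the gene. By this rule 44 of the 50 genes were tested, among 9984 features (8149 named genes and unnamed probes).

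RNA came from RAW 264.7, a mouse leukemic monocyte-macrophage cell line, incubated with 100 µg/mL mica fine particles (MFP) for 0, 12 or 48 h in RPMI medium with 2% FBS, to which the cells had been moved from 10% FBS 8 h before the particles. Each time point had 2 Illumina Mouse WG-6 v2.0 bead arrays, and the 0 h arrays are the nontreated cells of the study. No untreated cells kept for 12 or 48 h were analysed here, so that MFP, time in culture and time in low serum cannot be told apart. Whether the paired arrays stem from different cultures is not stated, and p-values measure the spread between arrays, which may be technical. The arrays had 16176 to 17155 detected probes of 45281, with median signals of 102.3 to 115.8, and their small number limits the precision. As for the cell type, 8 of the 9 macrophage markers with a probe (among them Lyz2, Csf1r, Adgre1 and Cd14) were detected on every array, whereas none of the 20 T cell, B cell, fibroblast, neutrophil and red blood cell markers with a probe was, and 1 of 5 epithelial markers, Cdh1, was. The deposited normalized table shows that the arrays had been normalized in 2 sets of 3, each with 1 array of every time point, and values within each set are given where they bear on a result.

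Replication is set up in steps. In G1 phase the origin recognition complex, with Cdc6 and Cdt1, loads the MCM helicase onto origins, and geminin holds Cdt1 in check afterwards. At the start of S phase the Dbf4-Cdc7 kinase and cyclin-dependent kinases bring Cdc45 and the GINS complex to MCM, which makes the helicase active. Polymerase alpha-primase lays down primers, polymerase epsilon extends the leading strand, polymerase delta extends the lagging strand, and the clamp PCNA, loaded by replication factor C, keeps the polymerases on DNA. Many of these genes are transcribed by E2F factors around the entry into S phase, and RAW 264.7 cells, unlike most mature macrophages, divide in culture. In bulk RNA, fewer cells in S phase and less RNA per cell cannot be told apart.

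Promoter sequences of 41 of the 50 genes were matched by symbol in RefSeq (mouse build GRCm38.p6), each 300 bases long, from 250 bases before the start to 50 after it. They were searched on both strands for 4 forms of the E2F element (TTTCCCGC, TTTCGCGC, TTTGGCGC and TTTGCCGC). At least 1 form was present for 14 of the 41 genes (34.1%), against 2.6% of all 27025 genes in the same table (2.26% of its 32851 windows). The 5 windows printed here all hold the same 8 letters, TTTCCCGC on one strand or the other, and are shown because the genes behind them did different things at 48 h: Pclaf, Cdc6 and Pold1 fell, Pold3 did not pass the test and Pole4 rose. Capitals mark the E2F letters, and each sequence reads 5′ to 3′ along the gene, for Pclaf at chr9:65890073-65890372 (plus strand), Cdc6 at chr11:98907901-98908200 (plus), Pold1 at chr7:44548766-44549065 (minus), Pold3 at chr7:100121453-100121752 (minus) and Pole4 at chr6:82652825-82653124 (minus).
Pclaf: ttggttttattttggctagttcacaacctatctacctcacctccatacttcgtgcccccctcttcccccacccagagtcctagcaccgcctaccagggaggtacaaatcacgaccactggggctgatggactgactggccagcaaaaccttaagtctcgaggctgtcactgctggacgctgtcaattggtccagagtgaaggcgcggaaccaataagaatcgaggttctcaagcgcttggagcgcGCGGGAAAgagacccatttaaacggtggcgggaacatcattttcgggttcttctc
Cdc6: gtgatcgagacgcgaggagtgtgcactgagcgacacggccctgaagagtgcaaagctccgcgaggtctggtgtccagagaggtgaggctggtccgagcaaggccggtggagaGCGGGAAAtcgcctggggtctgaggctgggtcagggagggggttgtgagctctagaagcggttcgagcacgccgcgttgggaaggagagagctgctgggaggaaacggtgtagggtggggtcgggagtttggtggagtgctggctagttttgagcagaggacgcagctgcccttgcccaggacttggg
Pold1: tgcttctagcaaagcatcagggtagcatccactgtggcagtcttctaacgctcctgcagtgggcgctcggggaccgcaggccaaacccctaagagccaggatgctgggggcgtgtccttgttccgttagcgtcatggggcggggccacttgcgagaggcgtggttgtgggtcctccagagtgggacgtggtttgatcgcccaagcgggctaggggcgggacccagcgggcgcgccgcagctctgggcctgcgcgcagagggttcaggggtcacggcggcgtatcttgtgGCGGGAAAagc
Pold3: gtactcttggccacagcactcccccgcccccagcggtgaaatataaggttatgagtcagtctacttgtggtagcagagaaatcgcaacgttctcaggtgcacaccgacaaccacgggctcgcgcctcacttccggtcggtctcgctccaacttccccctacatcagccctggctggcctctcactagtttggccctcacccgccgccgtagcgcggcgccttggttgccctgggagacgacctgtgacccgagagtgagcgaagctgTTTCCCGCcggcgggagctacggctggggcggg
Pole4: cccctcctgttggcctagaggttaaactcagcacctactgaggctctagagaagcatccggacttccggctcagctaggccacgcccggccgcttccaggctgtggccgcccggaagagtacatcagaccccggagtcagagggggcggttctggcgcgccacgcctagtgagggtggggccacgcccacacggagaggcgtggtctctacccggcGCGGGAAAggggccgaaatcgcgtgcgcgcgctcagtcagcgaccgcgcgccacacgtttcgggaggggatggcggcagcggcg
Counted from 0 at the start base, the letters begin at -5 in Pclaf, -138 in Cdc6, 39 in Pold1, 17 in Pold3 and -34 in Pole4. A match of letters is a description and not a binding site. Of the 11 tested genes with E2F letters 8 fell at 48 h, with a median log2 change of -1.27, and of the 25 tested genes with a window but no such letters 21 fell, with a median of -1.13. The CHR element (TTTGAA or TTCGAA), known from promoters of late cell cycle genes, was in 8 of 41 genes (19.5%), against 21.7% of all genes (19.2% of windows). All 8 of those genes fell at 48 h, with a median log2 change of -1.19. Of the 28 tested genes with a window but no CHR letters 21 fell, with a median of -1.04. Over all features 26.4% fell at 48 h. The CCAAT box was in 20 of 41 (48.8%), against 41.1% of all genes (37.4% of windows). Of the 17 tested genes with it 14 fell at 48 h, with a median log2 change of -0.92. Of the 19 tested genes with a window but no CCAAT box 15 fell, with a median of -1.17. No match of one element overlapped a match of another in these windows.

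**Figure D1:**
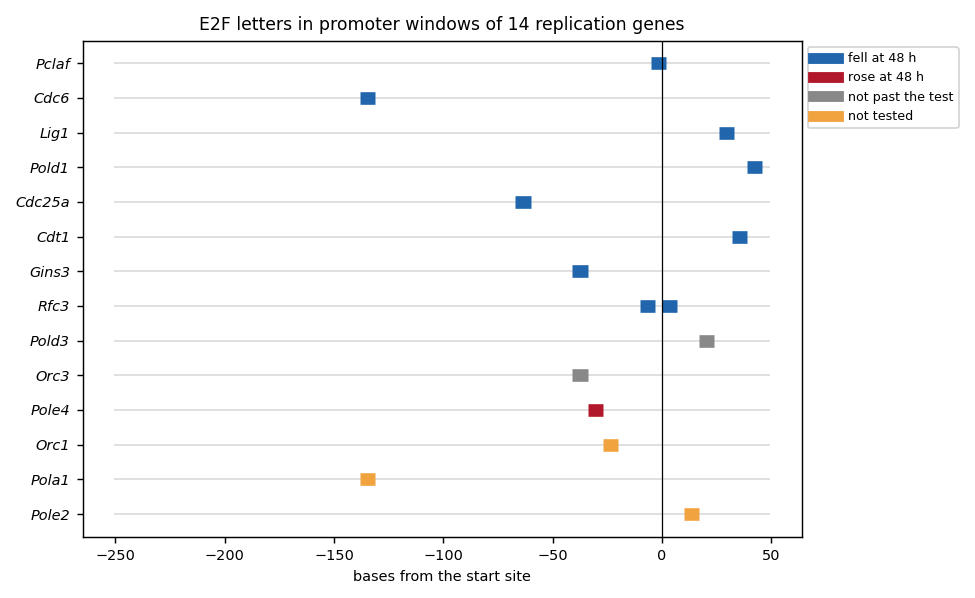
Position of E2F letters in the promoter windows of the 14 genes that hold them, in bases from the start site (0), ordered by the log2 change at 48 h with the 3 genes not tested last; colour gives the call at 48 h against 0 h. Genes that fell, rose or did not pass the test all carry the letters, at positions from -138 to 39. Pole4 is drawn with the window printed in the text, and Rfc3 has a pair of adjoining matches.

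At 48 h most of the replication genes were lower than at 0 h. Of the 44 tested, 37 fell against 0 h (26.4% of all features did), 1 rose (26.3% of all features did), and 6 did not pass the test, as judged by limma at an adjusted p under 0.05. The median log2 change was -1.15, against 0.0075 over all features, and the changes ran from -2.65 to 0.31. A fold of at least 2 was reached by 26 genes, all lower, against 5.07% of features that were lower by that much. On single arrays, the median log2 signal of the 44 genes was 10.56 and 10.72 (0 h), 10.29 and 10.31 (12 h) and 9.08 and 9.20 (48 h), while that of all features stayed between 9.47 and 9.50. For 39 of the 44 genes both 48 h arrays were below both 0 h arrays, as they were for 3733 of the 9984 features. With the array set as a block, 37 fell and 3 rose (Pole4, Orc3 and Orc4), and 43 of the 44 changes had the same sign in both sets, Pold3 being the exception. With that block 33.6% of all features fell. In the deposited normalized table without the block 20 of the genes fell, against 3.05% of features.

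At 12 h fewer of them had fallen. There were 18 that fell against 0 h (8.85% of all features did) and none that rose (10.4% of features did), and the median log2 change was -0.33, against -0.017 over all features. None of the 44 was lower by a fold of at least 2, as were 0.17% of features. The count of 18 depended on single arrays and on the array set: it was 4 without 0 h replicate 2, 8 without 0 h replicate 1, 8 without 12 h replicate 1, 7 without 12 h replicate 2, and 30 with the array set as a block. It was 5 with arrays scaled to their 75th percentile (2.52% of features fell), and 0 with no normalization or in the deposited normalized table. In both of those last settings none of the 9984 features fell, and with the array set as a block 20.4% did. Between 12 and 48 h, 36 genes fell (20.2% of features did) and 2 rose, Orc4 and Pole4 (19.9% of features did), with a median log2 change of -0.88 against 0.017 over all features, and 16 were lower by a fold of at least 2, against 3.26% of features. The count of 36 was 14 with no normalization (2.86% of features fell) and 5 in the deposited normalized table (1.15% of features fell). None of the 44 genes rose in these settings, where 53 and 80 of the 9984 features did. The 3 comparisons share arrays pairwise, so that the values at 12 and 48 h are set side by side without a test of one against the other. Among the genes that fell by 48 h, the change at 12 h was a median of 27.2% of that at 48 h on the log2 scale, and it was below 0 for 36 of the 37.

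**Figure D2:**
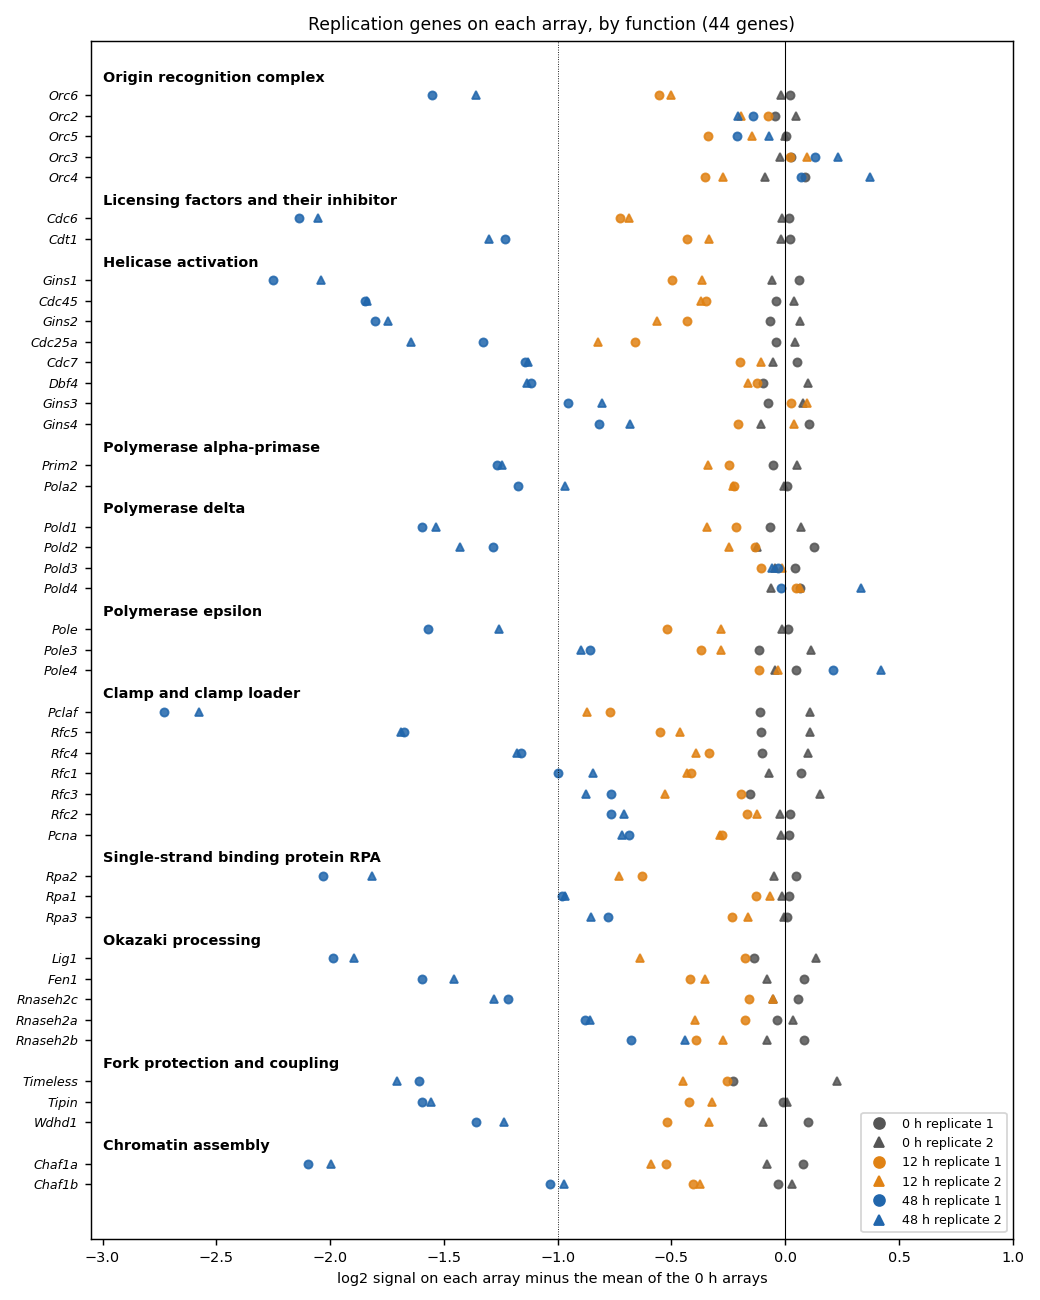
Log2 signal of each of the 44 genes on each array minus its mean on the 0 h arrays, by functional group; colour gives the time point, circles are replicate 1 and triangles replicate 2, and the dotted line marks a fold of 2. The 48 h arrays sit left of the 0 h arrays for most genes, and the 12 h arrays lie near the 0 h arrays or between both. The 6 genes not past the test at 48 h were Orc2, Orc3, Orc4, Orc5, Pold3 and Pold4, of which Orc4 lies below 0 on the 12 h arrays and higher on the 48 h arrays.

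**Figure D3:**
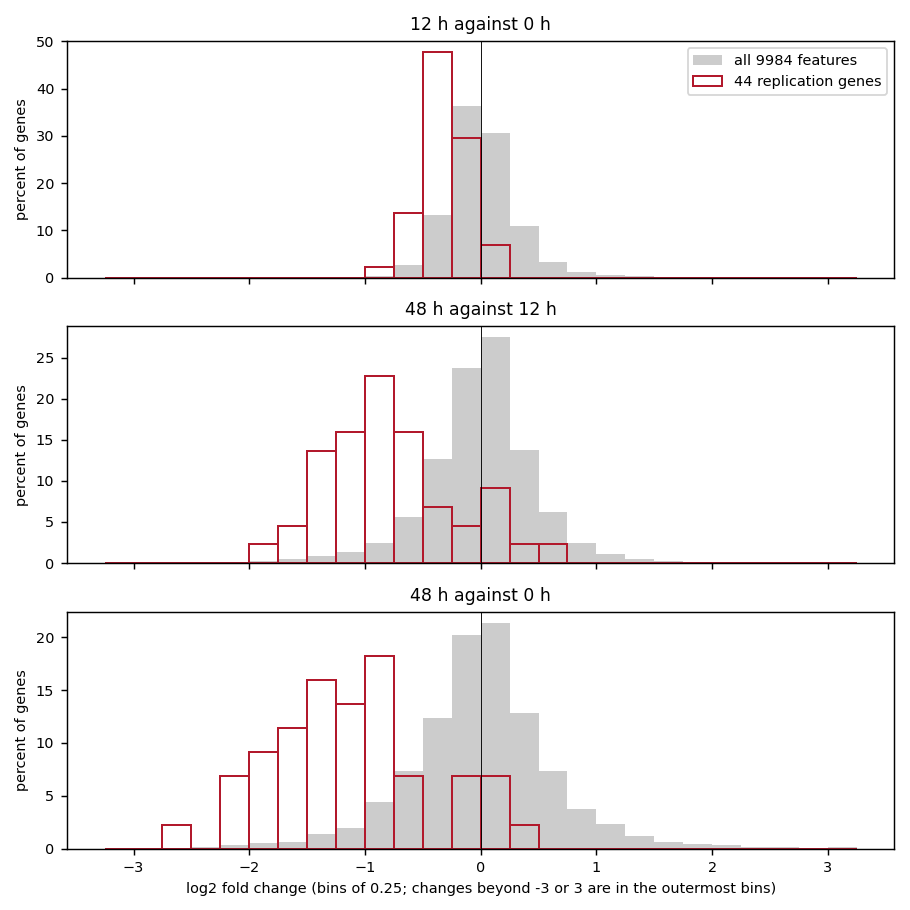
Percent of the 44 replication genes (outlined) and of all 9984 features (grey) in bins of the log2 fold change, for 12 h against 0 h, 48 h against 12 h and 48 h against 0 h. The replication genes lie to the left of the bulk of features in each panel, with medians of -0.33, -0.88 and -1.15.

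The origin recognition complex, which marks origins for the rest of the cycle, had the median nearest 0 of the 11 groups. Of its 5 tested subunits only Orc6 fell at 48 h, and the group's median log2 change was -0.14. Orc6, the smallest subunit, had log2 signals of 11.89 and 11.85 (0 h), 11.32 and 11.37 (12 h) and 10.32 and 10.51 (48 h). The time points did not overlap and stepped down in order. Its change was -0.53 ± 0.10 (SE, n = 2 arrays a group) at 12 h, with an adjusted p of 0.00875 by limma, and -1.46 ± 0.10 at 48 h, with an adjusted p of 1.09e-05, a 2.74-fold fall.

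Orc5, an ATP-binding subunit, read 12.03 and 12.03 (0 h), 11.69 and 11.88 (12 h) and 11.82 and 11.96 (48 h). Its 48 h arrays were just below the 0 h arrays, by -0.14 ± 0.10 (adjusted p = 0.274). Orc2 and Orc3, core subunits, changed by -0.17 ± 0.09 (adjusted p = 0.146) and 0.18 ± 0.09 (adjusted p = 0.122) at 48 h. Orc4, another ATP-binding core subunit, read 7.89 and 7.72 (0 h), 7.45 and 7.53 (12 h) and 7.88 and 8.18 (48 h). It was lowest on both 12 h arrays, while the 0 and 48 h arrays overlapped. It rose between 12 and 48 h by 0.53 ± 0.12 (adjusted p = 0.00912, but 0.725 with no normalization and 0.715 in the deposited normalized table), and at 48 h differed from 0 h by 0.22 ± 0.12 (adjusted p = 0.16). With the array set as a block Orc3 and Orc4 passed the test as higher at 48 h, with adjusted p-values of 0.0442 and 0.0219, and Orc4 and Orc5 as lower at 12 h, with 0.00529 and 0.0215.

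Orc1, the subunit known in human cells to come and go with the cell cycle, was not tested, because its brighter probe was detected on 5 of the 6 arrays. The linear signals of that probe were 227.4 and 185.1 (0 h), 213.7 and 231.8 (12 h) and 116.7 and 119.9 (48 h). Both 48 h arrays were below all 4 others, and 48 h replicate 2 was the array without detection (detection p of 0.109). When no filter was set, its log2 change was 0.09 ± 0.09 at 12 h and -0.70 ± 0.09 at 48 h, the latter with an adjusted p of 0.000118 by limma.

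The licensing factors that act on the bound complex fell at both times. Cdc6, the ATPase that joins the origin recognition complex to load MCM, read 10.09 and 10.06 (0 h), 9.35 and 9.39 (12 h) and 7.94 and 8.02 (48 h). No time points overlapped, and the arrays of each pair lay close together. The change was -0.71 ± 0.09 at 12 h (adjusted p = 0.00167) and -2.09 ± 0.09 at 48 h (adjusted p = 1.26e-06), which is a 4.27-fold fall. Cdt1, the partner that brings MCM to the origin, read 12.29 and 12.25, then 11.84 and 11.93, then 11.04 and 10.97, again with no overlap. It fell by 0.38 ± 0.09 (12 h, adjusted p = 0.021) and by 1.27 ± 0.09 (48 h, adjusted p = 1.35e-05). Gmnn, which encodes geminin, was not detected on any array. Its signals were 111.3 and 115.6 (0 h), 111.9 and 103.3 (12 h) and 82.81 and 83.45 (48 h).

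All 8 helicase activation genes fell at 48 h, 6 of them by a fold of at least 2, and 4 fell at 12 h. The largest fall was that of Gins1, a subunit of the GINS complex, which read 10.88 and 10.76 (0 h), 10.32 and 10.45 (12 h) and 8.57 and 8.78 (48 h). Its 48 h arrays were far below the others, with a change of -2.15 ± 0.11 (adjusted p = 2.68e-06, a 4.43-fold fall) after -0.43 ± 0.11 at 12 h (adjusted p = 0.027). Gins2, the next subunit, changed by -0.50 ± 0.10 at 12 h and -1.78 ± 0.10 at 48 h. The other 2 subunits of the same ring were nearly level at 12 h. Gins3 read 8.78 and 8.94 (0 h), 8.89 and 8.96 (12 h) and 7.90 and 8.06 (48 h). Gins4 read 12.73 and 12.52 (0 h), 12.42 and 12.66 (12 h) and 11.81 and 11.94 (48 h). For both the 0 and 12 h arrays overlapped, with changes of 0.06 ± 0.10 and -0.08 ± 0.12 (adjusted p = 0.74 and 0.685). At 48 h they had fallen by 0.88 ± 0.10 and 0.75 ± 0.12 (adjusted p = 0.000168 and 0.00102).

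Cdc45, which completes the active helicase, read 10.89 and 10.98 (0 h), 10.59 and 10.57 (12 h) and 9.09 and 9.10 (48 h), without overlap. It changed by -0.36 ± 0.08 (adjusted p = 0.0233) and then -1.84 ± 0.08 (adjusted p = 1.88e-06). The kinase pair that triggers firing, Cdc7 and its activator Dbf4, changed at 48 h by -1.14 ± 0.09 and -1.13 ± 0.10, with 12 h changes of -0.15 ± 0.09 and -0.14 ± 0.10 that did not reach the threshold (adjusted p of 0.275 and 0.345). Cdc25a, the phosphatase that activates S phase cyclin-dependent kinase, fell by similar steps before and after 12 h. It read 9.58 and 9.67 (0 h), 8.97 and 8.80 (12 h) and 8.30 and 7.98 (48 h). The changes were -0.74 ± 0.12 (adjusted p = 0.00599) and -1.49 ± 0.12 (adjusted p = 3.23e-05). A second and dimmer probe of Cdc25a was at 0.01 ± 0.10 (adjusted p = 0.914) at 48 h, so that the fall rests on the brighter probe.

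Cdc25a was the only one of 13 genes with more than 1 detected probe whose probes differed in sign at 48 h. Those 13 genes had 31 detected probes, of which 26 were lower and past the test. For Gins2 the probes gave -1.78, -1.49 and -1.40, for Lig1 -1.94, -1.53 and -0.90, and for Rfc2 the 4 probes lay between -0.74 and -0.64.

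The polymerase genes did not all fall. Of 12 subunits 9 were tested, and at 48 h 6 fell, Pole4 rose, and Pold3 and Pold4 did not pass the test. By the brightest probe none of the 9 passed the test at 12 h (8.85% of all features fell). Once the fit blocked on the array set 5 fell then (20.4% of all features did). Dimmer probes differed when all detected probes were fitted by limma. Those of Pole3 (-0.42 and -0.47, adjusted p = 0.0166 and 0.0123) and Prim2 (-0.38, 0.0244) were lower at 12 h and past the test. That of Pold4 was not (0.08, 0.636). Pold1, the catalytic subunit of polymerase delta, read 11.66 and 11.79 (0 h), 11.51 and 11.38 (12 h) and 10.13 and 10.19 (48 h). No time points overlapped, and the larger step came between 12 and 48 h. Its change was -0.28 ± 0.10 at 12 h (adjusted p = 0.0783) and -1.57 ± 0.10 at 48 h (adjusted p = 7.44e-06, a 2.96-fold fall). Pold2, the regulatory subunit bound to it, changed by -0.19 ± 0.11 and -1.36 ± 0.11.

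Pold3, the accessory subunit that also contacts PCNA, read 9.94 and 9.85 (0 h), 9.79 and 9.88 (12 h) and 9.87 and 9.84 (48 h). All 3 time points overlapped, and the change at 48 h was -0.04 ± 0.09 (adjusted p = 0.709). Pold4, the smallest subunit, read 8.96 and 8.83 at 0 h and 8.88 and 9.23 at 48 h, which overlapped too, with a change of 0.16 ± 0.12 (adjusted p = 0.326). Its second probe was at 0.05.

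In polymerase epsilon the catalytic subunit Pole read 9.34 and 9.31 (0 h), 8.80 and 9.04 (12 h) and 7.76 and 8.07 (48 h), stepping down without overlap. It fell by 1.41 ± 0.13 at 48 h (adjusted p = 4.9e-05), after -0.40 ± 0.13 at 12 h (adjusted p = 0.0637). Pole3, a histone-fold subunit, changed by -0.33 ± 0.10 and -0.88 ± 0.10. Pole4, the histone-fold partner of Pole3, was the one gene of the 44 that rose at 48 h against 0 h in the fit without a block. It read 8.49 and 8.40 (0 h), 8.33 and 8.41 (12 h) and 8.65 and 8.87 (48 h), so that both 48 h arrays were above all others. The rise was 0.31 ± 0.10 against 0 h (adjusted p = 0.0312 by limma) and 0.39 ± 0.10 against 12 h (adjusted p = 0.0172). It did not pass the test against 0 h without 0 h replicate 1 (adjusted p = 0.0652), without 0 h replicate 2 (0.144) or without 48 h replicate 2 (0.198), nor with no normalization (0.905) or in the deposited normalized table (0.754), and it was 0.00184 with the array set as a block. Against 12 h, too, Pole4 did not pass as higher with no normalization or in the deposited normalized table.

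Of polymerase alpha-primase, which makes the primers, Pola2 and Prim2 were tested, and both fell at 48 h. Prim2, the large primase subunit, read 9.70 and 9.81 (0 h), 9.51 and 9.41 (12 h) and 8.49 and 8.51 (48 h). Pola2, the accessory subunit, read 10.26 and 10.24, then 10.02 and 10.02, then 9.07 and 9.28. For both, every 48 h array was below every earlier one. They fell by 1.25 ± 0.09 (adjusted p = 1.53e-05) and 1.07 ± 0.10 (adjusted p = 4.98e-05). The catalytic subunit Pola1, and Pole2 of polymerase epsilon, were detected on no array, and the small primase subunit Prim1 was detected on 2, with signals of 140.2 and 117.4 (0 h), 120.2 and 124.2 (12 h) and 91.83 and 107.2 (48 h).

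**Figure D4:**
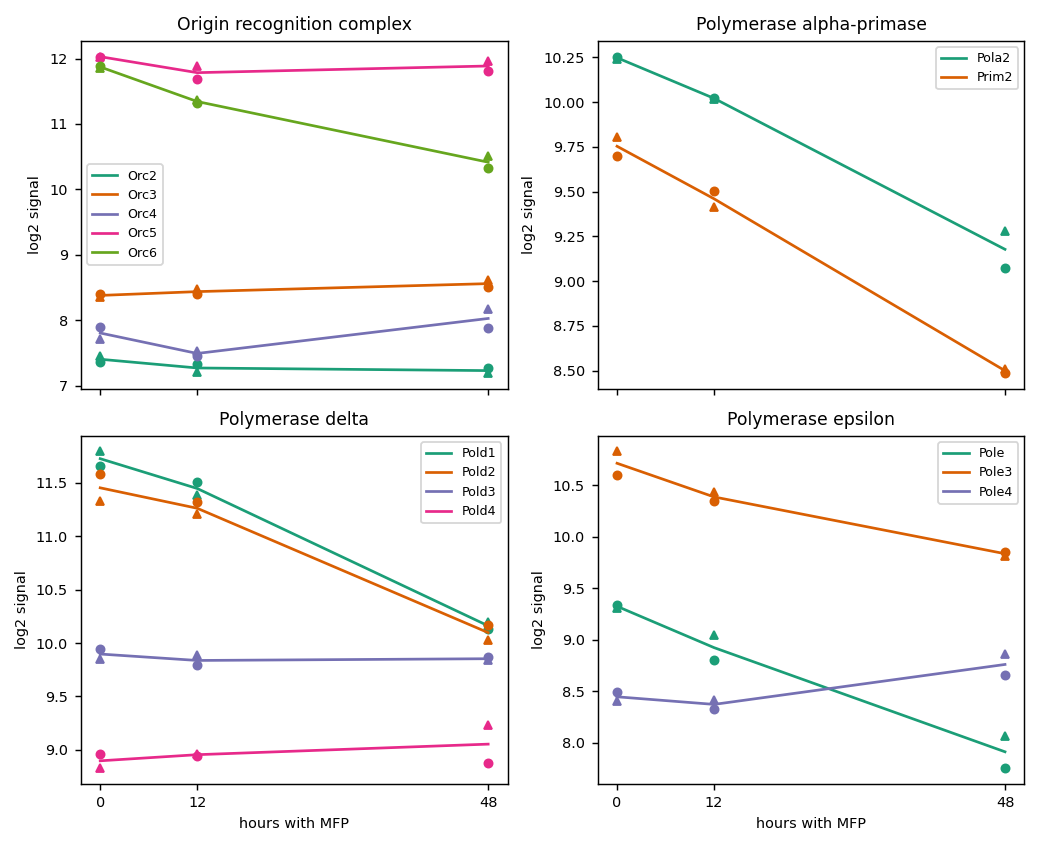
Log2 signal of the tested subunits of the origin recognition complex and of polymerases alpha-primase, delta and epsilon against hours with MFP; points are arrays (circles replicate 1, triangles replicate 2) and lines join the means of 2 arrays. Orc6, Pola2, Prim2, Pold1, Pold2, Pole and Pole3 are lowest at 48 h, whereas Orc2 to Orc5, Pold3, Pold4 and Pole4 end between -0.17 and 0.31 from their 0 h level; levels of different probes are not comparable.

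The clamp and clamp loader genes all fell at 48 h, and 5 of 7 fell at 12 h (26.4% and 8.85% of all features did). Pclaf, a small PCNA-binding protein, had the largest fall of the 44 genes and the fifth largest of all 9984 features. It read 10.38 and 10.60 (0 h), 9.72 and 9.62 (12 h) and 7.76 and 7.91 (48 h). Each step was wider than the gap within any pair of arrays, and no time points overlapped. The change was -0.82 ± 0.11 at 12 h (adjusted p = 0.00239) and -2.65 ± 0.11 at 48 h (adjusted p = 1.26e-06), a 6.29-fold fall, and within the array sets it was -2.47 and -2.84.

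Pcna, the clamp itself, had the smallest change of the group when no background was corrected. It read 7.99 and 7.95 (0 h), 7.69 and 7.69 (12 h) and 7.28 and 7.25 (48 h), in a strict order of time points. It fell by 0.28 ± 0.08 (12 h, adjusted p = 0.0493) and by 0.70 ± 0.08 (48 h, adjusted p = 0.000207). In the limma fit over all detected probes, Pcna did not pass the test at 12 h (adjusted p = 0.0568). Its single probe was dim, with linear signals of 202.9 to 295.7 at 0 and 12 h, and no background was subtracted from these values, which makes falls of dim probes smaller. With normexp background correction its change at 48 h was -1.28, and Rfc2, at -0.75, was the smallest of the group, while Pclaf was at -3.255.

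Replication factor C, the loader, fell in all 5 subunits, from -1.68 ± 0.10 for Rfc5 and -1.17 ± 0.10 for Rfc4 to -0.74 ± 0.08 for Rfc2, with Rfc1, the large subunit, at -0.92 ± 0.10 and Rfc3, another dim probe, at -0.82 ± 0.14 (-1.37 with normexp). At 12 h Rfc1, Rfc4 and Rfc5 fell, by 0.42, 0.36 and 0.51. Rfc2 and Rfc3 did not pass the test then, at -0.15 ± 0.08 (adjusted p = 0.271) and -0.36 ± 0.14 (adjusted p = 0.117), but Rfc3 passed as lower with the array set as a block (adjusted p = 0.00212).

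RPA, the trimer that coats single-stranded DNA, fell in all 3 subunits at 48 h. Rpa2, the subunit that checkpoint kinases phosphorylate, read 9.92 and 9.83 (0 h), 9.24 and 9.14 (12 h) and 7.84 and 8.06 (48 h). Rpa3, the smallest subunit, read 11.84 and 11.83, then 11.60 and 11.67, then 11.06 and 10.98. In both the time points stood apart in order. Rpa2 fell by 0.68 ± 0.10 (12 h, adjusted p = 0.00417) and by 1.92 ± 0.10 (48 h, adjusted p = 4.01e-06, a 3.80-fold fall), whereas Rpa3 changed by -0.20 ± 0.09 (adjusted p = 0.146) and -0.82 ± 0.09 (adjusted p = 0.000111). Rpa1, the large DNA-binding subunit, was at -0.10 ± 0.08 and -0.97 ± 0.08. A dimmer probe of Rpa2 gave -0.90 at 48 h.

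The Okazaki fragment enzymes fell in 5 of 5 tested genes at 48 h, and by the brightest probe 1, Fen1, fell at 12 h. In the limma fit over all detected probes, other probes of Rnaseh2b (-0.35, adjusted p = 0.0319) and Lig1 (-0.38, 0.0412) passed as lower at 12 h. Yet another probe of Lig1 did not (-0.38, 0.151). Blocking on the array set, 4 of the 5 fell at 12 h (20.4% of all features did). They were Fen1, Lig1 (adjusted p = 0.00505), Rnaseh2a (0.00977) and Rnaseh2b (0.00253). Lig1, the ligase that seals the fragments, read 11.02 and 11.29 (0 h), 10.98 and 10.52 (12 h) and 9.17 and 9.27 (48 h). The 12 h arrays differed by more than did either other pair, and the 48 h arrays were well below all. The change was -0.41 ± 0.16 at 12 h (adjusted p = 0.114) and -1.94 ± 0.16 at 48 h (adjusted p = 3.03e-05, a 3.84-fold fall). Fen1, the nuclease that trims the flaps, fell by 0.39 ± 0.10 (adjusted p = 0.0316) and by 1.53 ± 0.10 (adjusted p = 1e-05).

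The 3 subunits of ribonuclease H2, which cuts RNA from hybrids with DNA, all fell at 48 h. Rnaseh2b, an accessory subunit, read 11.30 and 11.14 (0 h), 10.82 and 10.94 (12 h) and 10.54 and 10.77 (48 h), and the 3 pairs did not overlap. It fell by 0.56 ± 0.11 at 48 h (adjusted p = 0.00343), with -0.33 ± 0.11 at 12 h (adjusted p = 0.0765) and -0.23 ± 0.11 between 12 and 48 h (adjusted p = 0.143). Rnaseh2c, the other accessory subunit, was at -0.11 ± 0.09 at 12 h and -1.25 ± 0.09 at 48 h, and the catalytic Rnaseh2a at -0.29 ± 0.10 and -0.87 ± 0.10. The nuclease-helicase gene Dna2 was detected on no array.

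The fork protection proteins all fell at 48 h by a fold of at least 2. Timeless, which holds the helicase and polymerases together, read 9.99 and 10.45 (0 h), 9.96 and 9.77 (12 h) and 8.61 and 8.51 (48 h). Its 0 h arrays lay apart, and the 12 h arrays were just below them. The change was -0.35 ± 0.15 at 12 h (adjusted p = 0.145, and 0.00464 with the array set as a block) and -1.66 ± 0.15 at 48 h (adjusted p = 5.08e-05). Tipin, its partner, fell by 0.37 ± 0.09 and 1.58 ± 0.09. Wdhd1, which links the helicase to polymerase alpha, read 9.20 and 8.998, then 8.58 and 8.76, then 7.74 and 7.86, without overlap, and changed by -0.43 ± 0.11 (12 h, adjusted p = 0.0315) and -1.299 ± 0.11 (48 h, adjusted p = 3.67e-05).

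Chromatin assembly factor 1, which lays histones on new DNA, fell in both subunits at both times. Chaf1a, the large subunit, read 11.10 and 10.94 (0 h), 10.50 and 10.43 (12 h) and 8.93 and 9.03 (48 h). Chaf1b read 11.31 and 11.37, then 10.94 and 10.97, then 10.31 and 10.37. Neither gene had overlapping time points. Chaf1a fell by 0.56 ± 0.10 (12 h, adjusted p = 0.00703) and changed by -2.05 ± 0.10 (48 h, adjusted p = 2.12e-06, a 4.13-fold fall). Chaf1b fell by 0.39 ± 0.08 (12 h, adjusted p = 0.0176) and changed by -1.002 ± 0.08 (48 h, adjusted p = 3.58e-05).

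Other genes of DNA replication were read from 7 further lists with 57 genes, of which 45 were tested. At 48 h 30 of the 45 fell and 2 rose (26.4% and 26.3% of all features did). The MCM helicase list fell in 8 of 8 genes, with a median log2 change of -1.98. Its largest changes were Mcm5 at -2.30 ± 0.09, Mcm10, which helps start the helicase, at -2.25 ± 0.09, and Mcm6 at -2.23 ± 0.10. The list of dNTP and histone supply fell in 8 of 9 tested genes, with a median of -1.80. The ribonucleotide reductase subunits Rrm2 and Rrm1 were at -2.50 ± 0.16 and -2.09 ± 0.11, thymidine kinase Tk1 at -2.22 ± 0.09 and thymidylate synthase Tyms at -2.07 ± 0.12, while the histone chaperone Asf1a was at -0.02 ± 0.09 (adjusted p = 0.86).

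Of the origin firing and checkpoint adaptors 4 of the 5 tested genes fell, led by Clspn, which links forks to the checkpoint, at -2.24 ± 0.08, with Donson at -1.26 ± 0.10, and Atrip, the partner of the ATR kinase, did not pass the test at 0.05 ± 0.11 (adjusted p = 0.752). Among alternative clamp loaders 2 of 4 fell, Chtf18 at -2.03 ± 0.09 and Atad5, which unloads PCNA, at -1.40 ± 0.10, and Chtf8 (-0.12 ± 0.16) and Rad17 (0.21 ± 0.10) did not pass the test. Both tested topoisomerases fell, Top2a by 1.91 ± 0.09 and Top1 by 0.38 ± 0.13.

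The lists of repair and of mitochondrial polymerases had medians nearer 0. Of 9 repair and translesion polymerase genes 2 fell, Polh by 0.71 ± 0.09 and Mad2l2 by 0.43 ± 0.09, 2 rose, Polk by 0.84 ± 0.15 (adjusted p = 0.00159) and Primpol by 0.53 ± 0.09 (adjusted p = 0.00154), and 5 did not pass the test, with a list median of -0.01. These counts are near the 26.4% of features that fell and the 26.3% that rose. Of 8 mitochondrial replication genes 4 fell, among them the polymerase Polg by 0.67 ± 0.09 and its accessory subunit Polg2 by 0.46 ± 0.10, none by a fold of 2, with a median of -0.32. With the array set as a block 7 of these 8 genes and 3 of the 9 repair genes fell at 48 h. Of all features 33.6% did. At 12 h the mitochondrial list had 3 genes that fell (Tfb2m by 0.61, Polg by 0.43 and Ssbp1, the mitochondrial single-strand binding protein, by 0.36), all named because the count was small. At 12 h 15 of the 45 genes of the 7 lists fell and 1, Primpol, rose (8.85% and 10.4% of all features did). The count of 15 was 5 without 12 h replicate 2, 7 without 0 h replicate 1, 8 without 0 h replicate 2, 29 with the array set as a block, and 0 with no normalization or in the deposited normalized table. With the array set as a block 20.4% of all features fell at 12 h. None did with no normalization or in the deposited normalized table. Differences between lists were described by counts and medians and were not tested.

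**Figure D5:**
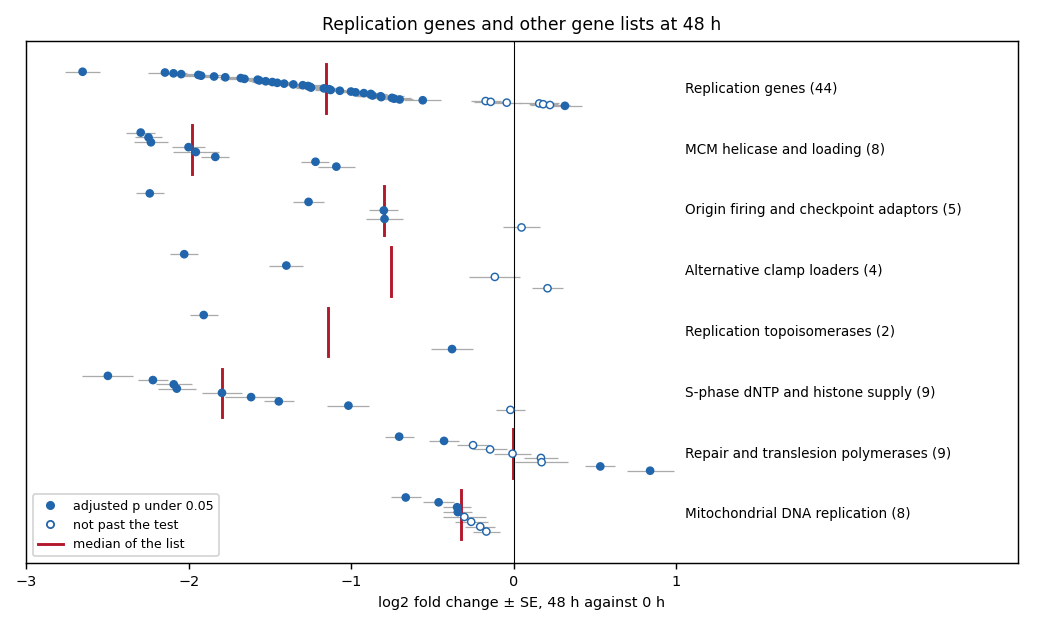
Log2 fold change at 48 h against 0 h (± SE of the limma fit) of the 44 replication genes and of the tested genes of 7 other replication lists; filled points passed the test at an adjusted p under 0.05, open points did not, and vertical bars are list medians. The medians run from -1.98 for the MCM list to -0.01 for repair and translesion polymerases.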

How the data were processed

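Per the deposited non-normalized table, each Illumina Mouse WG-6 v2.0 array gave a bead-summarised signal intensity per probe and a detection p-value against the array's negative controls, exported by the authors from GenomeStudio without background subtraction. The authors also deposited log2 values after quantile normalization, done in 2 separate sets of 3 arrays and in R (version 3.0.2 in the submitters' processing notes), which served here as an alternative. The 14091 probes (31.1% of 45281) detected on each of the 6 arrays, at a detection p under 0.05, were transformed to log2 and quantile normalized together in R 4.3.3. Gene symbols came from the platform annotation, updated by Entrez ID (34807 probes looked up); 34885 probes had 1 symbol, 18 several and 10378 none, and the brightest probe stood for a gene.

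All 6 arrays entered 1 limma model (version 3.58.1, lmFit and eBayes, 3 residual and 5.05 prior degrees of freedom), with Benjamini-Hochberg adjustment over 9984 features. A gene fell or rose at an adjusted p under 0.05, and the study's own fold of at least 2 is given beside it. The fit was tested on simulated data. The genes and lists were chosen with earlier results of these data known. Values on every array were given for the genes with the largest and smallest change in each group, those that rose, and those a result turned on. The replicate numbers did not pair the 0 h arrays with the others, because 0 h replicate 1 shared its array set with replicate 2 of 12 and 48 h. Promoter windows came from RefSeq (GRCm38.p6); protein sequences were not analysed here. All array columns were mapped, and alternatives varied the filter, background, normalization, source table, probe choice, block and arrays.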

Additional observations from a re-analysis of the deposited data

How the results depend on the processing

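At 48 h against 0 h the count of replication genes that fell was 37 as reported, 36 to 38 under most alternatives, 26 with no normalization (which alone moved the median of all features by -0.176) and 20 in the deposited normalized table, and it was 37 with every array left out in turn. The deposited table gave 38 once its 2 array sets were a block, where 33.8% of all features fell. Without the block 3.05% of features fell in that table, and 5.07% did with no normalization. The median change of the members was -1.29 with normexp background correction, -1.38 with no normalization and -1.04 with the mean of the probes of a gene, and -1.20 to -1.13 with arrays left out. The other replication lists had 30 genes that fell, 18 in the deposited table and 28 to 31 with arrays left out. They had 27 with scaling to the 75th percentile and 20 with no normalization. With the array set as a block they had 34 (33.6% of all features fell), and also 34 in the deposited table with that block.

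At 12 h against 0 h the count of 18 became 5 with scaling to the 75th percentile, 0 with no normalization (1 at an unadjusted p under 0.05), 0 in the deposited table (2 at an unadjusted p), 30 in that table with the array set as a block, 30 with the array set block, 0 at a fold of at least 2 with or without the adjusted p, and 4 to 18 with arrays left out. The 18 genes were all among the 30. Of all features 2.52% fell with the 75th percentile, 20.4% with the array set block and 19.6% in the deposited table with that block. None fell with no normalization or in the deposited table without the block. The other lists, with 15, gave 9 with normexp, 8 with the 75th percentile, 0 with no normalization and in the deposited table, 28 and 29 with the array set as a block, and 5 to 16 with arrays left out. The median stayed between -0.34 and -0.27 with arrays left out.

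Between 12 and 48 h the count of 36 became 14 with no normalization, 5 in the deposited table, 16 at a fold of at least 2 with or without the adjusted p, and 35 to 36 with arrays left out. The other lists, with 26, gave 16, 9 and 24 to 26. Of all features 2.86% fell with no normalization and 1.15% in the deposited table. The median of -0.88 became -0.98 with normexp and -1.18 with no normalization (median of all features -0.223). It was -0.94 to -0.85 with arrays left out.

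The replicate numbers do not pair the 0 h arrays with the others. Deviations of same-numbered arrays correlated over all features at -0.57 (0 and 12 h), -0.58 (0 and 48 h) and 0.63 (12 and 48 h). Those of the array sets correlated at 0.57, 0.58 and 0.63. With 2 arrays a time point the sizes are equal by construction, and only the signs can differ. With the replicate block 37, 12 and 35 replication genes fell at 48 h, at 12 h and between 12 and 48 h. Of all features 24.5%, 5.54% and 18% did. Of the other lists 9 genes fell at 12 h. For single genes 15 values changed sign, all of genes that had not passed the test. With no normalization these were Orc3 (-0.0049) and Pold4 (-0.034) at 48 h against 0 h, and Orc3 (-0.13), Orc5 (-0.20), Pold3 (-0.28) and Pold4 (-0.16) between 12 and 48 h, where Orc2 was at 0.12 with the 75th percentile. With arrays left out the range crossed 0 at 48 h for Pold4 (-0.019 to 0.33), at 12 h for Gins3 (-0.018 to 0.14), Gins4 (-0.21 to 0.037) and Pold4 (-0.0074 to 0.12), and between 12 and 48 h for Orc2 (-0.099 to 0.019), Pold3 (-0.030 to 0.063) and Pold4 (-0.076 to 0.27). The cause of these changes was not tested. With no background subtracted, changes of dim probes may be understated. At 48 h Orc2, Orc4, Pcna and Rfc3 were at -0.17, 0.22, -0.70 and -0.82. With normexp they were at -0.38, 0.34, -1.28 and -1.37, and Orc2 and Orc4 did not pass the test either way. With 2 arrays a group, small changes could not be told from the spread between arrays.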
